A study of Mus musculus with 16 samples.

Results

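The 10 genes described here make fatty acids from acetyl-CoA in the cytosol or set the level of that pathway. They were taken by symbol from a deposited table of FPKM, a unit that divides the reads of a gene by its length and by the library size. The regulators are Srebf1, Mlxipl and Thrsp, the core enzymes are Acly, Acaca and Fasn, the desaturases are Scd1 and Scd2, and the elongases are Elovl1 and Elovl6. All 10 were found once each among 24187 rows. All 10 also reached a mean of 1 FPKM and so were among the 13392 genes tested.

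Of 16 mouse mammary gland samples in the series, 7 are messenger RNA libraries. The tissue was taken at day 13 of pregnancy from Socs2-Δs (Mut) mice, with 3 libraries, and from wild-type (WT) mice, with 4 libraries. Both groups carry the strain label C57BL/6. The Socs2-Δs line was made with Cas9 genome editing, and Socs2 encodes a feedback inhibitor of cytokine signalling. The wild-type mice were bought from a vendor, so source and genotype cannot be told apart. For the 3 mutant libraries the genotype field says wild type while title and source name say Mut, and the title was followed. No label says whether replicates came from separate animals or from pools. The p-values therefore cover only the variation among these samples, which may be technical.

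In de novo synthesis, Acly cuts citrate to acetyl-CoA, Acaca carboxylates it to malonyl-CoA, and Fasn joins these units into a saturated chain. Elongases such as Elovl6 lengthen the chain and stearoyl-CoA desaturases such as Scd1 place a double bond in it. The transcription factors SREBP-1 (Srebf1) and ChREBP (Mlxipl) raise transcription of the enzymes, the former in answer to insulin and the latter to glucose. In the mammary gland both the fat pad and the secretory epithelium run this pathway, and the epithelium uses it for milk fat around birth. The comparison asks how this programme stood in glands with the edited Socs2 locus before milk secretion begins.

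The wild-type group was not uniform: libraries 3 and 4 of it lay far from the other 5, and their values are given separately. The leading principal component held 61.6% of the variance of log2(FPKM + 1). On it the mutant libraries lay between -37.7 and -29.6, wild-type libraries 1 and 2 at -15.8 and -18.2, and wild-type libraries 3 and 4 at 57.1 and 77.9. Neat1, which is in none of the lists used here, measured 495.9 to 586.2 FPKM in the mutant libraries. It measured 464.1 and 442.2 FPKM in wild-type libraries 1 and 2, and 11.35 and 14.8 FPKM in wild-type libraries 3 and 4. What set that pair apart was not tested. Depth, recovered from the steps between FPKM values, was 21.3 to 24.5 M (mega) reads, and each member held at least 338 reads in each library. Relative to mutant replicate 1, 1 read was worth 0.919 in wild-type replicate 1 (21.3 M) and 1.10 in wild-type replicate 3 (24.5 M). The library size behind the FPKM was thus not this recovered total. All FPKM summed to 421374 in wild-type replicate 1, the lowest sum, and to 771273 in wild-type replicate 3, the highest. Socs2 itself measured 17.1, 13.9 and 15.99 FPKM in mutant replicates 1 to 3 and 25.6, 22.1, 24.8 and 16.1 FPKM in wild-type replicates 1 to 4. Its groups overlapped at wild-type replicate 4 (limma adjusted p = 0.267). The part of the locus that was edited is not stated, so this level does not check the labels. The 12 liver markers summed to 8.10 to 11.1 FPKM in the mutant libraries, 11.7 and 11.95 in wild-type libraries 1 and 2, and 238 and 2134 in wild-type libraries 3 and 4. The summed milk gene markers were higher, and the summed adipocyte markers lower, in every mutant library than in any wild-type library. The luminal sums overlapped, at 1975, 1741 and 2632 FPKM in mutant replicates 1 to 3 and 1332, 1621, 2060 and 844 FPKM in wild-type replicates 1 to 4. In whole tissue, fewer cells of a type and less RNA per cell cannot be told apart.

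None of the 10 genes passed with all 7 libraries (limma, Benjamini-Hochberg adjusted p over all genes, threshold 0.05). Across all genes 0.0448% rose and 0% fell by this rule. With limma array weights, which down-weight variable libraries, Srebf1 (limma adjusted p = 0.05 after rounding) and Elovl1 (0.0244) passed on the higher side. With these weights 1371 of 13392 genes tested passed, 635 higher and 736 lower. At an unadjusted p under 0.05, Srebf1 and Elovl1 were higher in Socs2-Δs glands and no member was lower, where 9.12% of all genes were higher and 8.98% lower. The mutant libraries lay wholly above the wild-type libraries for the same 2 genes, and 12.5% of all genes tested did so, with 10% wholly below and 22.5% either way. The median log2 difference of the 10 genes was 0.38, against -0.004 over all genes. All log2 differences are mutant minus wild type on log2(FPKM + 1), a scale that understates changes of low genes. In the narrower comparison with wild-type libraries 1 and 2 alone, Mlxipl fell and the other 9 genes did not pass, where 1.42% of 13276 genes rose and 0.716% fell (2.14% in all). At an unadjusted p under 0.05, Srebf1, Acly and Elovl1 were higher and Mlxipl lower, against 9.45% and 10.7% of all genes. There 5 of the 10 genes did not overlap between the groups, against 40.2% of all genes: Srebf1, Thrsp, Acly and Elovl1 lay higher (22% of all genes) and Mlxipl lower (18.2%).

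**Figure D1:**
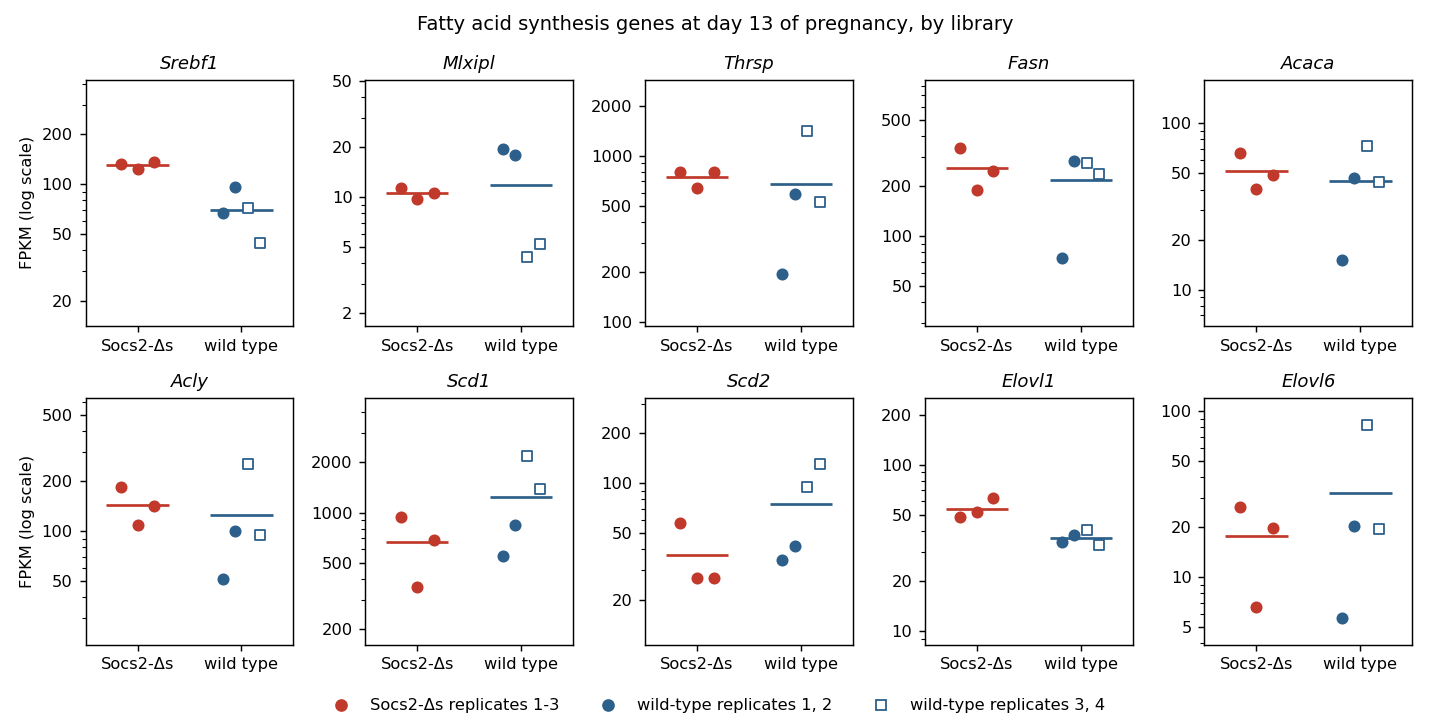
FPKM of each gene (log axis, the same number of decades in each panel) in the 3 Socs2-Δs libraries (red) and the 4 wild-type libraries (blue; open squares, replicates 3 and 4), each in replicate order from left to right, with group means as lines. The Socs2-Δs points of Srebf1 (123 to 135 FPKM) and Elovl1 (48.6 to 63.0 FPKM) lie above every wild-type point, and those of Mlxipl lie between the pairs of wild-type libraries.

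Srebf1 encodes the sterol regulatory element binding protein SREBP-1, the main activator of lipogenic genes under insulin. It measured 133, 123 and 135 FPKM in mutant replicates 1 to 3, against 66.9 and 95.9 FPKM in wild-type libraries 1 and 2 and 72.5 and 44.2 FPKM in wild-type libraries 3 and 4. Every mutant library was above every wild-type library, and the mutant libraries were close together. The means were 130.4 ± 6.69 FPKM in mutant and 69.9 ± 21.2 FPKM in wild-type glands (SD, n = 3 and 4), a ratio of 1.87. The log2 difference was 0.94 (SE 0.26) and did not pass over all genes (limma adjusted p = 0.171). Against wild-type libraries 1 and 2 it was 0.69 (SE 0.18, limma adjusted p = 0.113). The table has 1 row for Srebf1, for which RefSeq gives 3 start windows, so the SREBP-1a and SREBP-1c forms cannot be told apart.

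Mlxipl encodes ChREBP, the carbohydrate response element binding protein. It had the lowest mean of the 10 genes, at 11.4, 9.68 and 10.5 FPKM in mutant replicates 1 to 3, 19.6 and 18.01 FPKM in wild-type libraries 1 and 2, and 4.35 and 5.21 FPKM in wild-type libraries 3 and 4. The mutant libraries thus lay below one pair of wild-type libraries and above the other, an arrangement that 2.39% of the genes tested shared. With all 7 libraries the log2 difference was 0.11 (SE 0.50, limma adjusted p = 0.913). Against wild-type libraries 1 and 2, Mlxipl fell by 0.78 on the log2 scale (SE 0.11, limma adjusted p = 0.0361), to a mean of 10.5 FPKM in mutant glands against 18.8 FPKM in those 2 libraries. Leaving out any 1 of these 5 libraries ended this call, with a limma adjusted p of 0.0797 to 0.246, and fitting all 7 with libraries 3 and 4 of the wild type as a covariate gave 0.128. Within the pairs the values were alike, and between the wild-type pairs the mean log2 difference was -1.78 (replicates 3 and 4 minus 1 and 2), larger in size than that of 97.1% of the genes tested. Mlxipl also had 1 row, while RefSeq gives it 2 start windows, so transcripts from these starts cannot be told apart.

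As Mlxipl was the 1 gene called against wild-type libraries 1 and 2, both of its start windows are printed, with that of Fasn for comparison. Each runs from 250 bases before to 50 bases after a RefSeq start on the build GRCm38.p6, 5′ to 3′ on the strand of the gene. Capitals mark CACGTG, the E-box core read by the MLX and USF families, in the first Mlxipl window, TCACNCCAC, a sterol regulatory element pattern, in the second, and CCAAT on either strand in Fasn. A further CCAAT match in the first Mlxipl window is left in lower case.
Mlxipl, chr5:135089640-135089939, plus strand: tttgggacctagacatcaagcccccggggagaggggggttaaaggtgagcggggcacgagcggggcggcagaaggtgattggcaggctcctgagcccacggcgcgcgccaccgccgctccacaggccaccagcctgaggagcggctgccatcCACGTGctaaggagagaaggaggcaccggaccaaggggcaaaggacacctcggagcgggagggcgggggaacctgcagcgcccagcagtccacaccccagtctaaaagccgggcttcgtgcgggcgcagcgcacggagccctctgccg
Mlxipl, chr5:135106641-135106940, plus strand: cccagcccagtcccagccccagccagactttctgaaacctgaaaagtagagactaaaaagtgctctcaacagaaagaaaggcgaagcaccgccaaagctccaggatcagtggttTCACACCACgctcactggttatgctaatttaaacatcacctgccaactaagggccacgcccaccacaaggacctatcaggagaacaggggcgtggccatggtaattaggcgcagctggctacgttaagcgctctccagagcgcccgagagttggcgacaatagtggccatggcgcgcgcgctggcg
Fasn, chr11:120824498-120824797, minus strand: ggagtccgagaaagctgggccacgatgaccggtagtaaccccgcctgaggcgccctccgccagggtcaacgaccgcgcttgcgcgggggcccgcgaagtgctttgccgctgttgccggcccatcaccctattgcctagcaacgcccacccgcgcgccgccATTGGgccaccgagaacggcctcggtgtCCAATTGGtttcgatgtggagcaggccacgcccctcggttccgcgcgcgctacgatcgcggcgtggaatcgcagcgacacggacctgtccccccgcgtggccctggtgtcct
The E-box begins 98 bases before the first Mlxipl start and the TCACNCCAC match 136 bases before the second. In Fasn, CCAAT begins 62 bases before the start on the coding strand and 90 and 59 bases before it on the other strand, and 2 of these 3 matches overlap.

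Windows were matched for 8 of the 10 genes, 12 windows in all, and each motif was searched on both strands. CACGTG was in 1 of the 12 windows and in 7.15% of all 32851 windows of the table, and TCACNCCAC was in 1 of 12 and in 1.24%. TTCNNNGAA, the palindrome read by STAT factors, was in 0 of the 12 windows and in 8.3% of all windows. CCAAT, the box bound by NF-Y, was added after the windows had been seen. It was in 7 of the 12 windows, those of Acly, Elovl1, Fasn, Mlxipl, Srebf1 and Thrsp, and in 37.4% of all windows. These are matches of letters in a short window and say nothing of binding.

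Thrsp encodes Spot 14, a nuclear protein of lipogenic tissues that responds to thyroid hormone and carbohydrate and is needed for full milk fat synthesis in mice. It measured 797, 640.4 and 795 FPKM in mutant replicates 1 to 3, 193 and 586.5 FPKM in wild-type libraries 1 and 2, and 1400.5 and 529 FPKM in wild-type libraries 3 and 4. The mutant libraries were close together, whereas wild-type replicate 1 was the lowest of the 7 libraries and wild-type replicate 3 the highest. Wild-type replicate 3 was the highest library for 5 members (Thrsp, Acaca, Acly, Scd1 and Elovl6) and for 24.7% of all genes. With 7 libraries the log2 difference was 0.46 (SE 0.59, limma adjusted p = 0.662). Without wild-type libraries 3 and 4 the groups did not overlap, and the difference of 1.13 (SE 0.47) did not pass (limma adjusted p = 0.251). It was 0.34 when wild-type replicate 1 was also left out and 1.93 when wild-type replicate 2 was.

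Acly, the ATP citrate lyase, measured 184, 108 and 142 FPKM in mutant replicates 1 to 3, 51.6 and 100.5 FPKM in wild-type libraries 1 and 2, and 254 and 95.5 FPKM in wild-type libraries 3 and 4. Acaca, the acetyl-CoA carboxylase of the cytosol, measured 66.4, 40.6 and 48.9 FPKM in mutant replicates 1 to 3, 15.2 and 46.8 FPKM in wild-type libraries 1 and 2, and 72.9 and 44.1 FPKM in wild-type libraries 3 and 4. Fasn, the fatty acid synthase, measured 339, 188 and 244 FPKM in mutant replicates 1 to 3, 73.8 and 282 FPKM in wild-type libraries 1 and 2, and 275 and 236 FPKM in wild-type libraries 3 and 4. For all 3 enzymes wild-type replicate 1 was the lowest library, mutant replicate 1 was the highest mutant library, and the groups overlapped.

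The ratios of the genotype means, mutant over wild type, were 1.19 for Fasn, 1.15 for Acly and 1.16 for Acaca. Fasn averaged 257 ± 75.9 FPKM in mutant and 217 ± 97.4 FPKM in wild-type glands (SD, n = 3 and 4), with a log2 difference of 0.38 and an interval of -0.76 to 1.51 (95%, limma adjusted p = 0.664). Acly differed by 0.41 (interval -0.72 to 1.54) and Acaca by 0.37 (-0.72 to 1.47), with limma adjusted p of 0.634 and 0.657. With wild-type libraries 1 and 2 only, the differences were 0.79 for Fasn, 0.96 for Acly and 0.90 for Acaca, with limma adjusted p of 0.196 to 0.503. Each wild-type library moved these values: with replicate 1 left out too they were -0.17 for Fasn, 0.49 for Acly and 0.12 for Acaca, and with replicate 2 left out in its place they were 1.746, 1.44 and 1.68. Of all 7 libraries, without wild-type replicate 1 the log2 differences over the other 6 libraries were -0.08 for Fasn, -0.06 for Acaca, 0.07 for Acly and -0.03 for Thrsp. The sign of 3 of these differences thus turned when that library was left out.

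**Figure D2:**
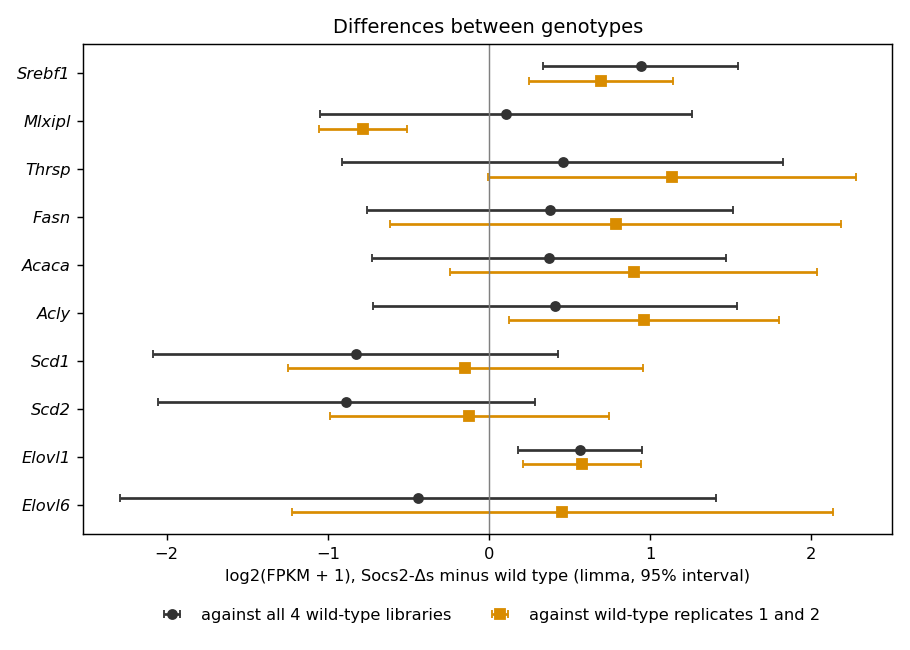
Log2 difference of each gene, Socs2-Δs minus wild type, with its 95% interval from limma, against all 4 wild-type libraries (black) and against wild-type libraries 1 and 2 (orange). The intervals of Srebf1 and Elovl1 lie above 0 in both, before adjustment over all genes, and Mlxipl is at 0.11 against all 4 wild-type libraries and at -0.78 against libraries 1 and 2.

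Scd1 encodes the main stearoyl-CoA desaturase of fat and skin and had the highest mean of the 10 genes. It measured 939, 356 and 688 FPKM in mutant replicates 1 to 3, 545 and 845 FPKM in wild-type libraries 1 and 2, and 2199 and 1382 FPKM in wild-type libraries 3 and 4. Scd2, its paralog, measured 58.0, 26.9 and 26.8 FPKM in mutant replicates 1 to 3, 34.4 and 41.8 FPKM in wild-type libraries 1 and 2, and 95.1 and 130 FPKM in wild-type libraries 3 and 4. Both desaturases were highest in wild-type libraries 3 and 4, as were 25.1% of all genes tested, and the mutant range enclosed wild-type libraries 1 and 2.

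With 7 libraries the log2 differences were -0.83 (SE 0.54) for Scd1 and -0.88 (SE 0.51) for Scd2, with limma adjusted p of 0.405 and 0.357. With the first 2 wild-type libraries only, they were -0.15 and -0.12, with intervals of -1.25 to 0.96 and -0.99 to 0.75. The sum of 12 adipocyte markers was 4176 to 7435 FPKM in the mutant libraries, 11990 and 13556 FPKM in wild-type libraries 1 and 2, and 14558 and 25701 FPKM in wild-type libraries 3 and 4. The part of these markers, or of the liver markers above, in the desaturase levels was not tested. Scd1, Scd2, Scd3 and Scd4 are paralogs in one cluster on chromosome 19, and reads could be split between them in a way the sources used here do not state. Scd3 and Scd4, named after their values were seen, measured 15.6 to 57.6 and 8.68 to 33.6 FPKM in the mutant libraries. Scd3 measured 23.2 and 28.6 FPKM in wild-type libraries 1 and 2 and 71.6 and 59.2 FPKM in libraries 3 and 4, and Scd4 measured 13.3 and 15.4 FPKM and then 41.3 and 33.3 FPKM in the same pairs. Summed, Scd1 to Scd4 measured 1088, 407 and 752.5 FPKM in mutant replicates 1 to 3. The sum was 615 and 931 FPKM in wild-type libraries 1 and 2 and 2407 and 1604 FPKM in wild-type libraries 3 and 4. It had the library order of Scd1, which made up most of it.

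Elovl1 encodes the elongase of saturated very long chains and Elovl6 that of C16 acyl chains made by Fasn. Elovl1 measured 48.6, 51.7 and 63.0 FPKM in mutant replicates 1 to 3, 34.1 and 37.8 FPKM in wild-type libraries 1 and 2, and 40.4 and 33.0 FPKM in wild-type libraries 3 and 4. Its groups did not overlap, and its log2 range over the 4 wild-type libraries, 0.29, was the smallest of the 10 genes (7.7% of all genes had a smaller one). The means were 54.4 ± 7.56 FPKM in mutant and 36.3 ± 3.42 FPKM in wild-type glands (SD, n = 3 and 4), a ratio of 1.5. The log2 difference was 0.57 (SE 0.17, limma adjusted p = 0.183), and 0.58 (SE 0.15, limma adjusted p = 0.106) against wild-type libraries 1 and 2.

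Elovl6 spread the most, with 26.6, 6.67 and 19.8 FPKM in mutant replicates 1 to 3, 5.70 and 20.3 FPKM in wild-type libraries 1 and 2, and 82.5 and 19.5 FPKM in wild-type libraries 3 and 4. Mutant replicate 2 and wild-type replicate 1 were low together and wild-type replicate 3 was far above the rest. The log2 difference was -0.44 (SE 0.80, limma adjusted p = 0.764) with 7 libraries and 0.46 (SE 0.69, limma adjusted p = 0.767) against wild-type libraries 1 and 2, so its sign turned with those libraries.

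The elongases had the library order of different marker lists, a match noticed in the values and given without a test. From low to high, Elovl1 ran through wild-type replicates 4, 1, 2 and 3 and then mutant replicates 1, 2 and 3. The sum of 9 milk genes had the same order, with 80763 to 107445 FPKM in the mutant libraries and 4044 to 45784 FPKM in the wild-type libraries. Csn2 and Csn1s2a, which made up most of that sum, had this order. Csn1s1, Csn3, Wap, Lalba, Glycam1, Xdh and Btn1a1 did not. Among the other 13391 genes tested, 54 (0.403%) shared the order of Elovl1.

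Elovl6 had the order of the sum of 8 brown fat markers, which was 113, 26.8 and 74.6 FPKM in mutant replicates 1 to 3, 20.7 and 89.7 FPKM in wild-type libraries 1 and 2, and 144 and 56.95 FPKM in wild-type libraries 3 and 4. None of the other genes tested had this order, and none had that of Fasn. The other members shared their order with 1 (Scd2) to 54 (Elovl1) genes. Elovl6 was nearly level in wild-type replicate 4, mutant replicate 3 and wild-type replicate 2, at 19.5, 19.8 and 20.3 FPKM. The sum was 56.95, 74.6 and 89.7 FPKM in these libraries. Most of the sum came from the cytochrome oxidase subunits Cox8b and Cox7a1. Ucp1, the uncoupling protein that defines brown fat, measured 24.4, 1.20 and 4.28 FPKM in mutant replicates 1 to 3 and 0.358, 3.44, 1.11 and 1.13 FPKM in wild-type replicates 1 to 4, and Zic1, another defining marker, was listed at 0 in 4 libraries and below 0.03 FPKM in the rest. Of the 14 lists summed, no other shared an order with a member. The part of either cell type in the elongase levels was not tested.

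**Figure D3:**
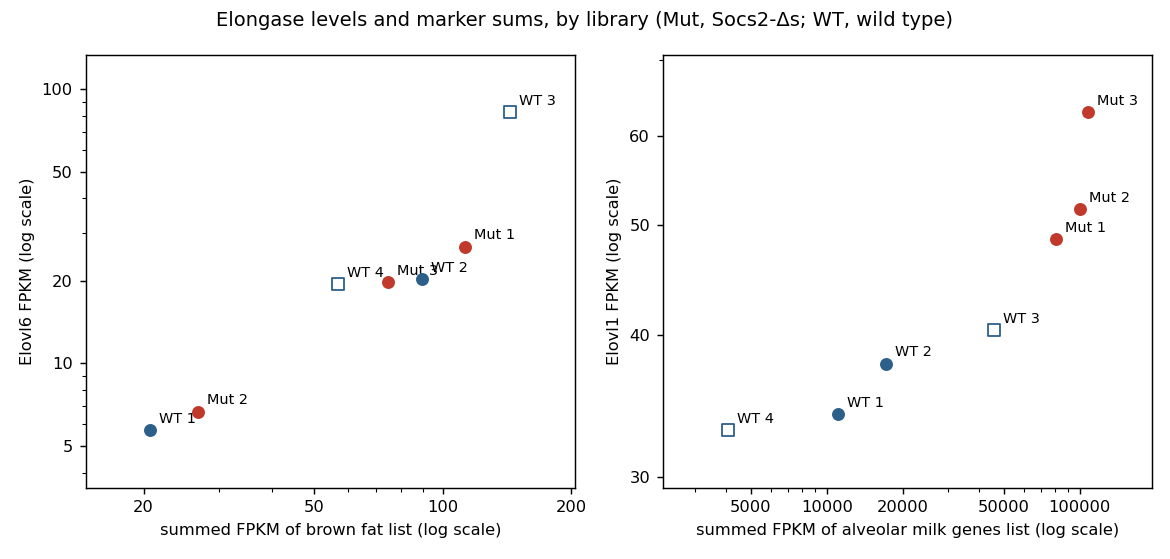
Elovl6 against the summed FPKM of 8 brown fat markers (left) and Elovl1 against that of 9 milk genes (right), 1 point per library on log axes (red, Mut; blue, WT; open squares, WT replicates 3 and 4). In both panels the 7 libraries have the same order on both axes, with Mut and WT points mixed for Elovl6 and apart for Elovl1.

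The enzymes varied widely between replicates of 1 genotype. Over the genes tested, wild-type replicates 1 and 2 lay close together, with a median absolute log2 difference of 0.17. Fasn was nevertheless 3.82-fold, Elovl6 3.57-fold, Acaca 3.08-fold and Thrsp 3.04-fold higher in replicate 2 than in replicate 1. These 4 differences were larger than those of 99.6% to 99.8% of all genes, and that of Acly, at 1.95-fold, larger than that of 97.8%. Scd1, at 1.55-fold, and Srebf1, at 1.43-fold, exceeded 94.6% and 91.4% of genes, and Scd2, at 1.21-fold, exceeded 70.7%. Wild-type replicate 1 was the lowest of the 7 libraries for 5 of the 10 genes (Thrsp, Fasn, Acaca, Acly and Elovl6) and for 14.7% of all genes. By contrast, Mlxipl and Elovl1 differed between these libraries by 0.12 and 0.14 on the log2 scale, less than the median gene.

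**Figure D4:**
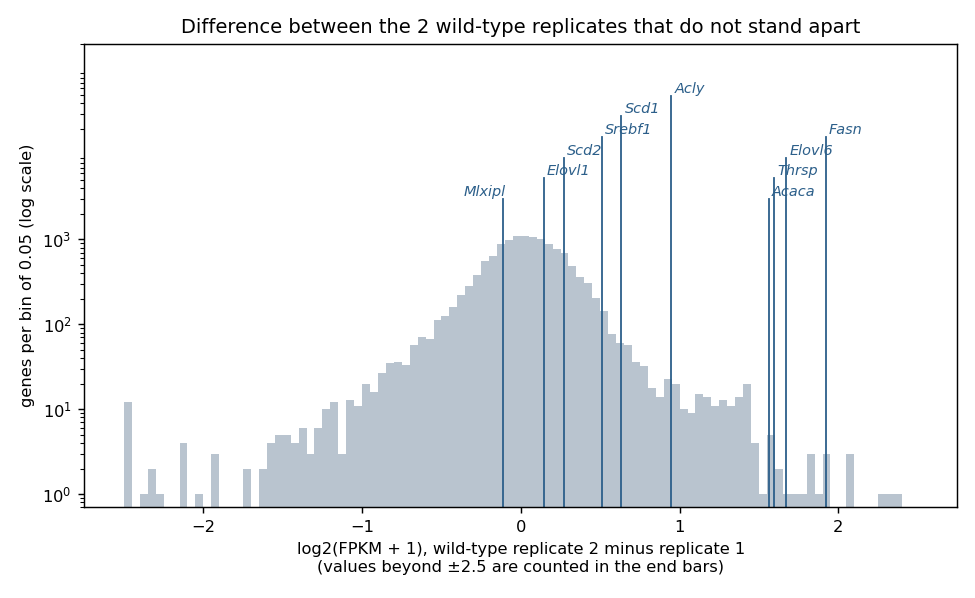
Histogram of the difference between wild-type replicates 2 and 1 on log2(FPKM + 1) for the 13392 genes tested (log axis of counts), with vertical lines at the 10 genes. Fasn (1.92), Elovl6 (1.67), Thrsp (1.60) and Acaca (1.56) lie in the sparse right tail, and Mlxipl (-0.12) and Elovl1 (0.14) within the bulk of genes.

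The mutant libraries also spread in several of these genes. Their log2 range was 1.85 for Elovl6, 1.40 for Scd1, 1.09 for Scd2, 0.84 for Fasn, 0.76 for Acly and 0.70 for Acaca, larger than that of 98.7%, 97.5%, 95.8%, 92.6%, 90.6% and 88.6% of all genes. It was 0.37 for Elovl1 and 0.31 for Thrsp, near the median of all genes. It was 0.14 for Srebf1 and 0.21 for Mlxipl, smaller than the median of 0.30 over all genes. Mutant replicate 2 was the lowest mutant library for 8 of the 10 genes, all but Scd2 and Elovl1, and for 29.2% of all genes. Among the 4 wild-type libraries the log2 range ran from 0.29 for Elovl1 to 3.64 for Elovl6, with a median of 0.78 over all genes.

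Ratios within a library showed which members kept in step. Fasn measured 5.10, 4.65 and 5.00 times Acaca in mutant replicates 1 to 3, 4.86 and 6.03 times in wild-type libraries 1 and 2, and 3.77 and 5.36 times in wild-type libraries 3 and 4. The synthase and the carboxylase thus varied less against each other than each did between libraries. Scd1 measured 10.6 to 25.7 times Scd2 over the 7 libraries. The ratio of Srebf1 to Mlxipl was 11.7, 12.7 and 12.8 in mutant replicates 1 to 3, 3.42 and 5.32 in wild-type libraries 1 and 2, and 16.7 and 8.48 in wild-type libraries 3 and 4, and the groups overlapped through wild-type replicate 3. The ratio of Fasn to Acly ran from 1.08 to 2.81, and that of Elovl6 to Elovl1 from 0.129 to 2.04. Together the 10 genes made up 0.282% to 0.534% of all FPKM in mutant libraries and 0.247% to 0.583% in wild-type libraries, and Scd1 alone held 23.0% to 36.1% of that sum in mutant and 40.7% to 54.9% in wild-type libraries.

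The nearest patterns over the 7 libraries put the core enzymes together. Likeness was the root mean square difference of centred log2(FPKM + 1). Fasn and Acaca were nearest to each other (0.19), and Acly and Thrsp were nearest to each other (0.24), where the median distance of all genes was 0.73 from Fasn and 0.74 from Acly. Beyond the members, Tkt, the transketolase of the pentose phosphate pathway, stood among the 3 nearest genes of Thrsp (0.35) and of Fasn (0.42), and Gpd1, the glycerol-3-phosphate dehydrogenase of the cytosol, among those of Fasn (0.39). Cysrt1 was among those of Acly (0.26).

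Elovl6 lay nearest to Me1 (0.30), the malic enzyme that makes NADPH, then to Cox8b (0.36) and Ppp1r3b (0.41). Scd1 lay nearest to Ppp1r3b (0.19), Pygl (0.22) and Gbe1 (0.26), which encode a glycogen-targeting phosphatase subunit, the liver glycogen phosphorylase and the glycogen branching enzyme. Scd2 lay nearest to Megf9, Mtmr9 and Klhl13 (0.24 to 0.27). Srebf1 lay nearest to Tinagl1, Fam115c and Susd4 (0.12), Mlxipl to Cyp46a1, Igsf9 and Scarf2 (0.13 to 0.15), and Elovl1 to Gyk, Tspan15 and Slc46a1 (0.06 to 0.07). None of the 3 genes nearest to Srebf1, Mlxipl or Elovl1 was a member. The nearest members were Elovl1 for Srebf1 (0.32), Srebf1 for Mlxipl (0.70), Scd2 for Scd1 (0.41) and Scd1 for Elovl6 (0.54).

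Other genes of the pathway were read from 4 lists, and none of them passed in either direction with 7 libraries or against wild-type libraries 1 and 2. The list of 20 genes that control SREBP and ChREBP had a median log2 difference of 0.19 (13 higher, 7 lower). Insig1, which holds SREBP in the endoplasmic reticulum and is itself an SREBP target, measured 18.5, 11.3 and 15.3 FPKM in mutant replicates 1 to 3, 20.1 and 39.7 FPKM in wild-type libraries 1 and 2, and 74.5 and 62.5 FPKM in wild-type libraries 3 and 4. Its groups did not overlap and it lay on the other side of 0 from Srebf1 (-1.52, SE 0.43, limma adjusted p = 0.172). Mlxip, the paralog of Mlxipl, averaged 17.2 FPKM in mutant glands, 12.2 FPKM over wild-type libraries 1 and 2 and 8.21 FPKM over wild-type libraries 3 and 4 (0.72 with 7 libraries, limma adjusted p = 0.168). Nr1h3, the liver X receptor alpha that activates Srebf1, averaged 14.9 FPKM in mutant glands, 25.2 FPKM over wild-type libraries 1 and 2 and 29.8 FPKM over wild-type libraries 3 and 4 (-0.81 with 7 libraries, limma adjusted p = 0.168). The kinase gene Akt2 differed by -0.80 (limma adjusted p = 0.160). Without wild-type libraries 3 and 4 the differences were -0.90 for Insig1, 0.46 for Mlxip, -0.73 for Nr1h3 and -0.58 for Akt2.

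Genes that release or modify the chain stood on both sides of 0. Olah, the thioesterase that ends synthesis early and yields the medium chains of milk, measured 72.1, 119 and 133 FPKM in mutant replicates 1 to 3, 28.0 and 49.7 FPKM in wild-type libraries 1 and 2, and 37.8 and 4.68 FPKM in wild-type libraries 3 and 4. The groups did not overlap, and the log2 difference of 2.14 (SE 0.70) did not pass (limma adjusted p = 0.210). The thioesterase genes Acot2 and Acot1 differed by 1.05 and 1.11, and Mid1ip1, the paralog of Thrsp, by -0.95, with limma adjusted p of 0.244 to 0.266. Without wild-type libraries 3 and 4 the differences were 1.46 for Olah, 0.82 for Acot2, 0.93 for Acot1 and -0.35 for Mid1ip1. Over the 10 genes of that list 5 were higher and 5 lower, with a median of 0.014. Acot1 and Acot2 are close paralogs whose reads could also be split.

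Of 13 further elongation and desaturation genes tested, out of 15 listed, 5 were higher and 8 lower, with a median of -0.11. The delta-5 and delta-6 desaturase genes Fads1 and Fads2, which make polyunsaturated chains, averaged 156 and 98.4 FPKM in mutant glands, 95.98 and 65.4 FPKM over wild-type libraries 1 and 2, and 87.5 and 46.9 FPKM over wild-type libraries 3 and 4. Their groups did not overlap, with log2 differences of 0.78 and 0.84 (limma adjusted p = 0.183 and 0.196). Hacd2, named Ptplb in the table, encodes the dehydratase of the elongation cycle and differed by -0.57 (limma adjusted p = 0.179), and Elovl4 by -0.53 (limma adjusted p = 0.219). Without wild-type libraries 3 and 4 the differences were 0.71 for Fads1, 0.58 for Fads2, -0.38 for Hacd2 and -0.60 for Elovl4.

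The 12 genes that supply acetyl-CoA and NADPH had a median of -0.27, with 3 higher and 9 lower. Idh1, the cytosolic isocitrate dehydrogenase, averaged 47.3 ± 3.68 FPKM in mutant glands (SD, n = 3), with means of 67.85 FPKM over wild-type libraries 1 and 2 and 144 FPKM over wild-type libraries 3 and 4 (-1.01, limma adjusted p = 0.233). G6pdx, Acss2 and Pgd differed by -0.79, -0.95 and -0.42, with limma adjusted p of 0.258 to 0.439. These differences were smaller without wild-type libraries 3 and 4, at -0.47 for G6pdx, -0.09 for Acss2, -0.06 for Pgd and -0.51 for Idh1, with limma adjusted p of 0.125 to 0.948. Relative to wild-type libraries 1 and 2 the medians of the 4 lists were 0.097 for control, 0.079 for release, 0.15 for elongation and desaturation and 0.18 for supply, beside 0.033 over all genes. The median of the supply list thus changed sign without wild-type libraries 3 and 4, as did that of the elongation list.

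**Figure D5:**
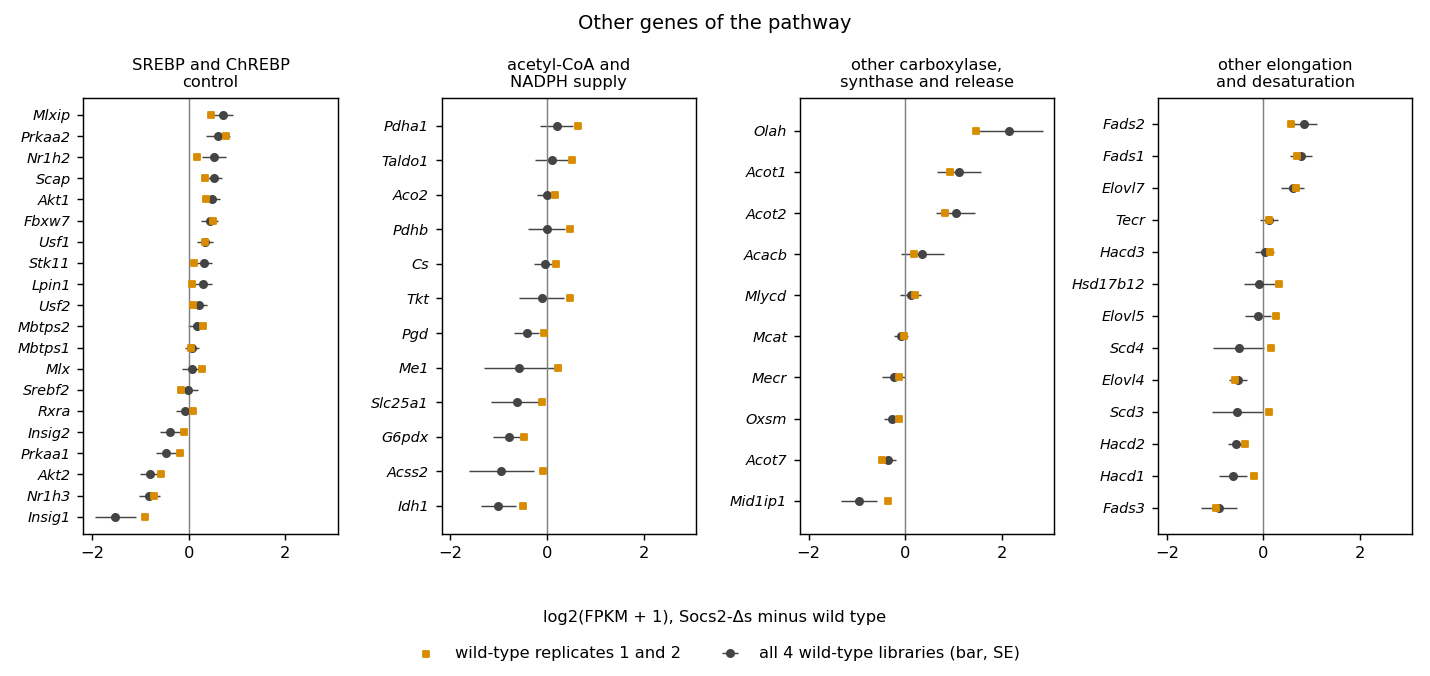
Log2 difference, Socs2-Δs minus wild type, of the tested genes of 4 pathway lists (black with SE, all 4 wild-type libraries; orange, wild-type libraries 1 and 2). Olah (2.14) lies highest and Insig1 (-1.52) lowest, and no gene passed the test over all genes.

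Marker lists gave the tissue background of these values, as medians of log2 differences with 7 libraries and then against wild-type libraries 1 and 2. Milk genes were at 2.52 and 2.49, luminal epithelium at 0.63 and 0.42, and myoepithelium at 0.003 and -0.07. Adipocyte markers were at -1.27 and -1.05, fibroblast at -0.73 and -0.54 and macrophage at -0.83 and -0.49. Brown fat was at 0.45 over 4 genes tested and 0.71 over 5. Skeletal muscle markers were at -1.09 and 0.054. No median is given for the liver and salivary gland lists, since most of their genes reached the mean of 1 FPKM only through wild-type libraries 3 and 4: 11 liver and 9 salivary genes were tested with 7 libraries, and 4 and 3 with 5. The salivary markers summed to 57.8 to 64.5 FPKM in the mutant libraries, 102 and 86.9 FPKM in wild-type libraries 1 and 2, and 445 and 250.2 FPKM in wild-type libraries 3 and 4. Outside wild-type libraries 3 and 4, Amy1, Bhlha15 and Aqp5 made up most of this sum. Prol1 measured 0.0366 to 0.332 FPKM in the mutant libraries, 0.875 and 0.0357 FPKM in wild-type libraries 1 and 2, and 149.8 and 39.3 FPKM in wild-type libraries 3 and 4. Smr2 measured at most 0.158 FPKM in any library. Fabp4, the most abundant adipocyte marker, averaged 2957 FPKM in mutant glands, 6156 FPKM over wild-type libraries 1 and 2 and 10891 FPKM over wild-type libraries 3 and 4. Krt19, the most abundant luminal marker, averaged 371.5, 295 and 240.2 FPKM in the same 3 sets. The other most abundant markers were Csn2 (38663, 7337 and 11029 FPKM), Acta2, Col3a1, C1qa, Cox8b, Alb, Amy1 and Acta1. Relative to wild-type libraries 1 and 2, 8 of 9 milk genes rose, all but Csn2, and Cidec, Pparg and Amy1 fell (limma adjusted p = 0.0278, 0.0365 and 0.0361). Over all genes 1.42% rose and 0.716% fell in that comparison. With 7 libraries no gene of the milk, adipocyte or salivary lists passed. All 12 adipocyte markers were on the lower side with 7 libraries. Of the 10 members 3 were lower (Scd1, Scd2 and Elovl6) and 7 higher, and of 13392 genes tested 6754 were lower. Against wild-type libraries 1 and 2 all 12 adipocyte markers were lower again. There the 3 lower members were Mlxipl, Scd1 and Scd2, and 5925 of 13276 genes were lower. What part each cell type had in the members' levels was not tested.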

How the data were processed

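Messenger RNA of whole mammary gland was measured in 7 libraries. The authors deposited FPKM per gene, in 1 table of 24187 rows. Per the submitters' processing notes the build was mm9 and the tools included CASAVA, Bowtie2, STAR and DESeq2, whose roles and versions were not stated. Annotation, strand use and filtering were not given in the sources used here, so overlapping genes cannot be told apart. Columns were matched to samples by group and replicate number, and 24107 Entrez IDs were found in a RefSeq table of GRCm38.p6, used for names, gene order and start windows. The 9 ChIP-seq and DNase-seq samples and protein sequences were not analysed here.

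Whole reads were recovered from the FPKM steps for 21044 of 21044 rows above 0 (tolerance 0.02 of a read), for depth only. Genotypes were compared with limma 3.58.1 (R 4.3.3), with empirical Bayes moderation and an intensity trend, run on log2(FPKM + 1). Genes entered where their mean over the fitted libraries reached 1 FPKM. P-values were two-sided and adjusted by Benjamini and Hochberg over all genes tested. The fit was tested on simulated data, with noise drawn independently for each gene and library. No pair of simulated libraries stood apart, so the simulation does not bear on wild-type libraries 3 and 4. The fit was repeated without wild-type libraries 3 and 4, under 18 other settings with 7 libraries and under 11 with 5.

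The members, the 4 pathway lists, the 10 marker lists and the split of the wild-type libraries were chosen with earlier results of these data known. Of each pathway list, genes that passed, or otherwise the 4 of smallest p, are named, of the marker lists the most abundant gene, and for each member the 3 genes of nearest pattern, predicted genes left out. The marker gene Mucl1 was not found, and a macrophage gene listed under 2 symbols was counted once.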

Additional observations from a re-analysis of the deposited data

How the results depend on the processing

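With 7 libraries 6 genes passed of all genes tested. The count was 1 with a pseudocount of 0.1, 18 with a pseudocount of 5, 1 with no filter, 0 with a minimum mean of 5 FPKM, 28 after quantile normalization, 284 without wild-type libraries 3 and 4, 0 with a term for these libraries, and 1371 with limma array weights, and leaving out 1 library gave 0 to 31. The members passing were 0, except 1 (Mlxipl) without wild-type libraries 3 and 4 and 2 (Srebf1 and Elovl1) with array weights. With array weights 3 genes of the release list passed (2 higher, 1 lower). So did 6 of the elongation list (3 higher, 3 lower) and 6 of the control list (3 higher, 3 lower). In the supply list 0 passed, and over all genes 635 were called higher and 736 lower. Deviations of same-numbered libraries correlated at 0.35, -0.104 and 0.283 over genes, and those of differently numbered libraries at -0.196 to 0.338. These correlations do not settle whether the replicate numbers pair the libraries. With the number as a replicate block, which leaves wild-type replicate 4 without influence, 0 genes passed with 7 libraries. With the block among 5 libraries 319 genes passed, 199 higher and 120 lower. They included Mlxipl (limma adjusted p = 0.044) and, in the release list, Olah (1 gene).

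Against wild-type replicates 1 and 2, 284 genes passed, and 25 with no filter and 0 to 66 with 1 library left out. Members passing were 1, and 0 with no filter, 2 after quantile normalization (Mlxipl and Elovl1) and 0 with any 1 library left out. Elovl7 passed with a pseudocount of 0.1 (1 gene of the elongation list) and with median-of-ratios scaling (1), and Elovl7 and Fads1 after quantile normalization (2). Akt2 of the control list passed with both scalings (1 each).

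Signs turned for several members. With 7 libraries Mlxipl was -0.004 after quantile normalization, -0.781 without wild-type libraries 3 and 4 or with a term for them, -0.152 with the replicate block and -0.686 with array weights, and -0.224 to 0.424 with 1 library left out. Elovl6 was 0.456 without wild-type libraries 3 and 4 or with a term for them and -1.017 to 0.196 with 1 library left out. Leaving out 1 library gave -0.063 to 0.667 for Acaca, -0.078 to 0.581 for Fasn and -0.033 to 0.917 for Thrsp. With 5 libraries Scd2 was 0.061 with the replicate block and -0.481 to 0.061 with 1 left out, Scd1 -0.463 to 0.245, Fasn -0.174 to 1.746, Acly 0.489 to 1.435, Acaca 0.119 to 1.680, Thrsp 0.336 to 1.932 and Elovl6 -0.379 to 1.292. Of 180 alternative values of members with 7 libraries, 164 kept direction and side of the threshold, and of 110 with 5 libraries 95 did. Sizes also moved without a turn of sign. After quantile normalization with 7 libraries Fasn was 0.773, Acly 0.73, Thrsp 0.893 and Scd1 -0.476. In the same order the main fit gave 0.378, 0.411, 0.458 and -0.826. The cause was not tested. With 1 wild-type library left, the spread came from the mutant libraries. In low genes depth limits precision, and Mlxipl, with 338 reads in wild-type replicate 3, is the lowest member.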
